A study of Mus musculus with 8 samples.

Results

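Transcripts of 10 genes that mark resident microglia were followed in mouse brain RNA, in control mice and in mice with a conditional knockout (cKO) of Akap11. The 10 genes were taken by name: the purinergic receptor genes P2ry12 and P2ry13, the lineage markers Tmem119 and Siglech, the surface receptor genes Cx3cr1, Csf1r and Trem2, and the complement genes C1qa, C1qb and C1qc. All 10 were found among the 57186 genes listed per library, and all 10 were among the 16766 genes with enough reads to be tested. The data are total RNA counts from 8 brain libraries, 4 from each genotype (control and AKAP11 conditional knockout). Genotype is the only difference between the groups that the labels state. Strain, age, sex, brain region, the recombinase line and its target cells are not stated in the labels used here, so it is not known whether microglia carried the deletion. The labels do not say that each library came from a separate mouse, and p-values measure only the spread between these libraries, which may be technical.

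Microglia are the resident macrophages of the brain. In the undisturbed tissue they express a set of genes that sense their surroundings: P2Y12 and P2Y13 are receptors for ADP released by other cells, CX3CR1 binds the neuronal chemokine CX3CL1, CSF1R binds the growth factors CSF1 and IL-34 on which microglia depend, and TREM2 binds lipids and lipoproteins and signals through the adaptor TYROBP. TMEM119 and SIGLECH are surface proteins used to identify the cells. Microglia are also the main brain source of C1q, the recognition molecule of the classical complement pathway, which is assembled from the chains encoded by C1qa, C1qb and C1qc and is known for tagging synapses during developmental pruning. P2ry12 and Tmem119 are commonly reported to be lowered when microglia leave this homeostatic state.

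In the RefSeq gene table of GRCm38.p6, P2ry13 and P2ry12 are adjacent protein-coding genes on chromosome 3, and C1qb, C1qc and C1qa follow each other on chromosome 4 with no other protein-coding gene between them. Promoter sequences were available for 7 of the 10 genes in the RefSeq table for GRCm38.p6, a different build from the GRCm39 build named for the reads. The purinergic pair and the C1q pair with an entry are printed because the neighbours within each pair are compared below. Each runs 5′ to 3′ on the strand of the gene, from 250 bases before its start to 50 after it. Capitals mark GAGGAA or its reverse complement TTCCTC, a short form of the motif bound by ETS factors such as PU.1, the factor that defines macrophages. The positions, all on the minus strand, are chr3:59262936-59263235 for P2ry12, chr3:59210833-59211132 for P2ry13, chr4:136886151-136886450 for C1qb and chr4:136892865-136893164 for C1qc.
P2ry12: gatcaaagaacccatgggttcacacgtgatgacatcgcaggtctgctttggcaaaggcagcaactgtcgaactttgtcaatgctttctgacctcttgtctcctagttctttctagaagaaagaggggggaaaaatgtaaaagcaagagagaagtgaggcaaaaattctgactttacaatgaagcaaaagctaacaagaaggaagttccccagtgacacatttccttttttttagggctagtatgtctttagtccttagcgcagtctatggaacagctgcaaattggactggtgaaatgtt
P2ry13: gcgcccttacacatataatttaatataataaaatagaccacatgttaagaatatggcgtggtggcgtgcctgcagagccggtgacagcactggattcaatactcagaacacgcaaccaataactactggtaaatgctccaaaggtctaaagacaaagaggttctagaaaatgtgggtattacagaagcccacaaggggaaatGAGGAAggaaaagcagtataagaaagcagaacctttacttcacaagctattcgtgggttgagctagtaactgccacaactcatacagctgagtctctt
C1qb: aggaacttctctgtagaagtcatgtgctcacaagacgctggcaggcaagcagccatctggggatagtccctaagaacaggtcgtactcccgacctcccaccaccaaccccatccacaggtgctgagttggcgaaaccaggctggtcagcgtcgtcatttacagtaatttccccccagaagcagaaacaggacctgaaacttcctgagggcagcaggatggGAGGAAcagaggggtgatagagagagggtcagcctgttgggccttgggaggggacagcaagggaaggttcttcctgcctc
C1qc: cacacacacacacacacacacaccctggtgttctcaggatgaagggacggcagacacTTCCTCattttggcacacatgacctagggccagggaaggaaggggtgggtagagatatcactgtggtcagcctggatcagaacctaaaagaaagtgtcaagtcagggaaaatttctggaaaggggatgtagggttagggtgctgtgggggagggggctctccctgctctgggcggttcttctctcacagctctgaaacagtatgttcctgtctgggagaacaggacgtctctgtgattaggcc
The motif was found in 5 of the 7 promoters (P2ry13, Siglech, Trem2, C1qb and C1qc), against 28.3% of the 32851 promoters in the table, and not in those of P2ry12 and Cx3cr1. A match describes the letters and does not show a bound site. The closing bases of the P2ry12 window, which lie after the start, were not found as a run in the GENCODE M21 transcripts of the gene. A first exon that ends inside the window would also give this, and the start itself was not checked. The window may therefore not be the promoter used in brain. Of the other motifs searched on both strands, the ETS-IRF composite was found in 0 of the 7 (2.71% of all promoters) and the MEF2 motif in that of Cx3cr1 alone (3.69% of all promoters).

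The libraries held 13841218 to 19991942 reads in genes. The targeted gene Akap11 read 373, 312, 315 and 291 CPM in controls 1 to 4 and 220, 214, 237 and 240 CPM in cKO replicates 1 to 4, where CPM is the count relative to the TMM-scaled library total. Its edgeR log2 fold change was -0.50 (adjusted p 0.0103, SE 0.069). It was 1 of 4 genes in all that passed the adjusted threshold of 0.05, which is 0.0239% of those tested. A pair of libraries stood apart on principal components: cKO replicate 1 on the first (39.1, the others -10.5 to 0.48) and control replicate 1 on the second (31.0, the others -14.3 to 3.77). In cKO replicate 1 the share of listed reads that lay in genes was 63.8%, against 73.7% to 79.7% elsewhere. Values are given below with and without these libraries where they bear on a microglia gene.

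Brain markers were abundant, with neuronal Snap25 between 2242 and 2603 CPM and the myelin gene Mbp between 1635 and 2191 CPM over the 8 libraries. Fcrls, another microglia gene, was also present at 20.03 to 27.2 CPM. The 10 genes together received 0.0300% to 0.0347% of the reads in genes, between 134 and 1659 reads per gene and library. These are bulk samples, so a smaller number of microglia and less RNA per microglial cell cannot be told apart.

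None of the 10 microglia genes passed the adjusted edgeR test between cKO and control brain (adjusted p 0.889 to 0.994). P2ry12 was the only member with an unadjusted p under 0.05, a level reached by 4.78% of all genes tested. P2ry12 was also the only member whose groups did not overlap, where 2.96% of all genes had groups that did not. The log2 fold changes (cKO minus control) ran from -0.26 for P2ry12 to 0.17 for Tmem119, with 7 of 10 above 0 (51.2% of all genes) and 3 below it. Their median was 0.08, against 0.0034 over all genes. The 95% interval lay within 1.5-fold in either direction for all 10 genes, as it did for 76.8% of all genes; the widest bounds were a 1.29-fold higher level for Tmem119 and a 25.6% lower level for P2ry12.

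**Figure D1:**
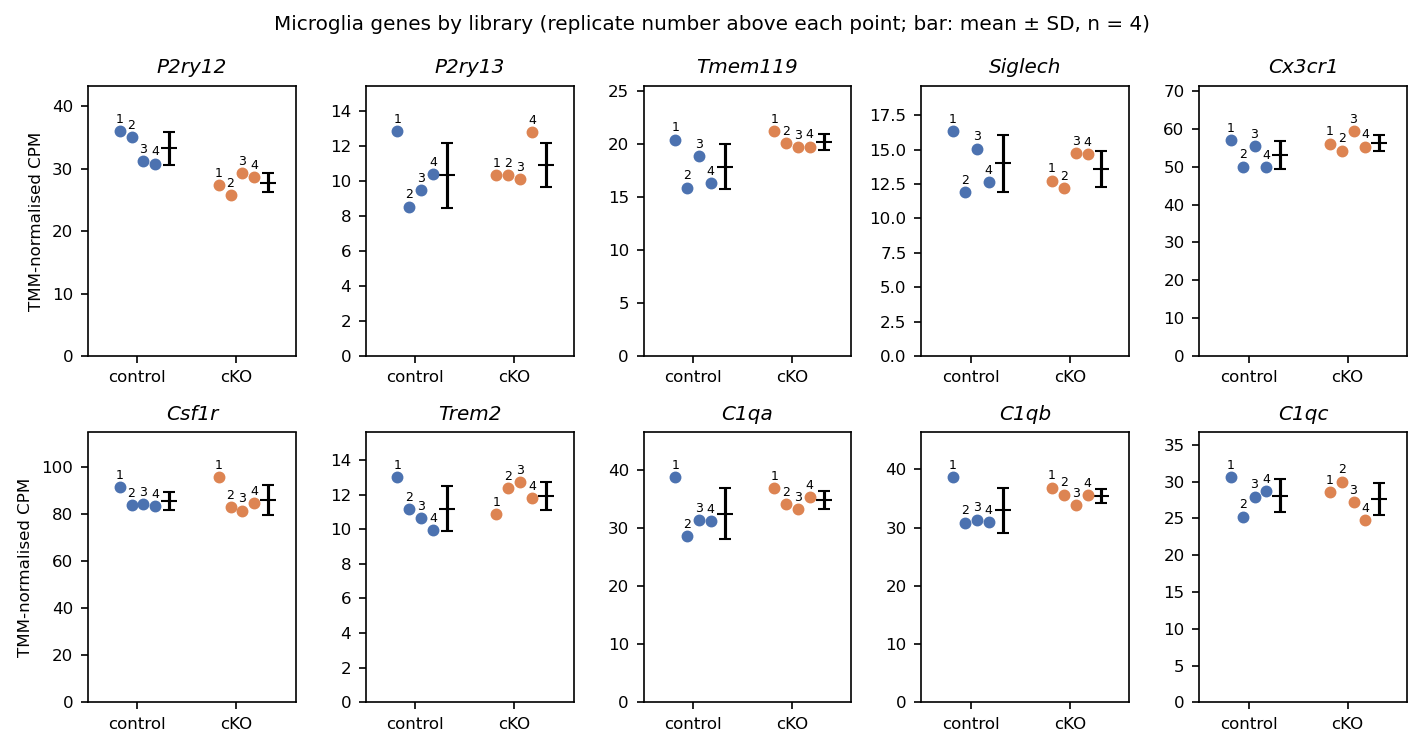
Level of each of the 10 microglia genes by library. The vertical axis is TMM-normalised CPM from 0, points are single libraries with the replicate number above them, and the bar is the mean ± SD of 4 libraries. Only for P2ry12 do all 4 cKO points (25.8 to 29.3 CPM) lie below all 4 control points (30.8 to 36.1 CPM), and control replicate 1 is the highest control in every panel.

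Of the purinergic receptor genes, P2ry12 read 36.1, 35.1, 31.3 and 30.8 CPM in controls 1 to 4 and 27.4, 25.8, 29.3 and 28.7 CPM in cKO replicates 1 to 4. Every cKO library lay below every control library, an arrangement that 1.39% of all genes showed in this direction. The mean was 33.3 ± 2.66 CPM in control and 27.8 ± 1.56 CPM in cKO tissue (SD, n = 4 each), 16.4% lower, with log2 fold change -0.26 (95% interval -0.43 to -0.09, SE 0.080). By edgeR the unadjusted p was 0.00424, position 35 among all genes, and the adjusted p 0.889, so the difference did not pass. The log2 fold change was -0.22 without control replicate 1, -0.26 without cKO replicate 1 and -0.21 with offsets for the GC content of each gene. P2ry12 transcripts are poor in GC (38.6%), and with the GC offsets and without control replicate 1 together, a fit added after the values were seen, it stood at -0.17 with an unadjusted p of 0.0507. Exons of P2ry12 overlap exons of Med12l on the opposite strand in GENCODE M21. Whether counting used strand is not known, so reads in the overlap cannot be assigned with certainty. Med12l itself read 44.1 ± 2.20 CPM in control and 41.4 ± 1.70 CPM in cKO tissue, with overlapping groups.

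P2ry13, the neighbouring gene for the related ADP receptor, read 12.9, 8.53, 9.48 and 10.4 CPM in control and 10.3, 10.3, 10.1 and 12.8 CPM in cKO replicates 1 to 4. The groups overlapped throughout, and the highest library of each group (control replicate 1 and cKO replicate 4) stood clear of the other 3. The mean was 10.3 ± 1.86 CPM in control and 10.9 ± 1.26 CPM in cKO tissue (SD, n = 4 each). The log2 fold change of 0.08 had a 95% interval of -0.19 to 0.35 (edgeR adjusted p 0.933), and it was -0.01 without cKO replicate 4 and 0.20 without control replicate 1. The ratio of P2ry12 to P2ry13 CPM lay between 2.80 and 4.11 in control libraries and between 2.25 and 2.90 in cKO libraries. These ranges overlap slightly, and the difference between the 2 receptor genes was not tested. As a share of the summed CPM of all 10 genes, P2ry12 made up 9.90% to 11.7% in control and 8.12% to 9.11% in cKO libraries, without overlap. This share was computed after the values of P2ry12 were seen.

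Among the lineage markers, Tmem119 read 20.4, 15.9, 18.8 and 16.3 CPM in control and 21.2, 20.1, 19.7 and 19.7 CPM in cKO replicates 1 to 4. The cKO libraries lay close together and above control replicates 2 to 4, while control replicate 1 lay among them. The mean was 17.9 ± 2.14 CPM in control and 20.2 ± 0.715 CPM in cKO tissue (SD, n = 4 each), with log2 fold change 0.17 (95% interval -0.02 to 0.37, SE 0.094, edgeR adjusted p 0.889). It was 0.25 without control replicate 1 and 0.10 with GC offsets (transcript GC 59.1%). P2ry12 and Tmem119, both commonly used as signs of the homeostatic state, thus had values on opposite sides of 0. Siglech, encoding a member of the Siglec family of lectins, read 16.4, 11.9, 15.1 and 12.6 CPM in control and 12.7, 12.2, 14.7 and 14.7 CPM in cKO replicates 1 to 4. Its groups overlapped almost entirely, at a log2 fold change of -0.04 (95% interval -0.28 to 0.20, edgeR adjusted p 0.964). The sign turned without control replicate 1 (0.04).

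Among the surface receptor genes, Cx3cr1, the receptor gene for the neuronal chemokine, read 57.1, 50.1, 55.5 and 49.9 CPM in control and 56.1, 54.3, 59.5 and 55.3 CPM in cKO replicates 1 to 4. Control replicates 2 and 4 were below all other libraries, and the groups overlapped. The log2 fold change was 0.08 (SE 0.067, 95% interval -0.06 to 0.22, edgeR adjusted p 0.892). Gm33858, a gene of few reads on the opposite strand, overlaps its exons (34 reads over all 8 libraries).

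Csf1r, which encodes the receptor for the growth factors that keep microglia alive, had the most reads of the 10 genes. It read 91.2, 83.5, 84.2 and 83.3 CPM in control and 95.4, 82.6, 81.3 and 84.4 CPM in cKO replicates 1 to 4. In each group replicate 1 was the highest library and the other 3 lay between 81.3 and 84.4 CPM. The means were 85.5 ± 3.79 and 85.9 ± 6.43 CPM (SD, n = 4 each), a log2 fold change of 0.0051 with a 95% interval of -0.13 to 0.14 (edgeR adjusted p 0.994). It was -0.05 without cKO replicate 1. Exons of Csf1r overlap those of Hmgxb3 on the opposite strand (log2 fold change 0.07). Trem2, the lipid receptor gene linked to the activated state, read 12.98, 11.1, 10.6 and 9.94 CPM in control and 10.9, 12.4, 12.7 and 11.8 CPM in cKO replicates 1 to 4. Control replicate 1 was the highest and control replicate 4 the lowest of the 8. The log2 fold change was 0.10 (SE 0.11, 95% interval -0.13 to 0.33, edgeR adjusted p 0.911).

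Of the C1q genes, C1qa read 38.7, 28.6, 31.4 and 31.2 CPM in control and 36.8, 34.2, 33.2 and 35.3 CPM in cKO replicates 1 to 4. C1qb read 38.6, 30.8, 31.4 and 30.9 CPM in control and 36.8, 35.6, 33.9 and 35.6 CPM in cKO replicates 1 to 4. In both genes all 4 cKO libraries lay above control replicates 2 to 4 and below control replicate 1. C1qa averaged 32.5 ± 4.34 CPM in control and 34.9 ± 1.55 CPM in cKO tissue, and C1qb 32.9 ± 3.78 and 35.5 ± 1.22 CPM (SD, n = 4 each). The log2 fold changes were 0.10 for C1qa (SE 0.087, 95% interval -0.08 to 0.28) and 0.11 for C1qb (SE 0.082, 95% interval -0.06 to 0.28), with edgeR adjusted p of 0.895 and 0.889. Without control replicate 1 they were 0.20 and 0.19, and with GC offsets 0.02 and 0.04 (transcript GC 59.5% and 57.4%).

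C1qc did not share this arrangement. It read 30.6, 25.2, 28.0 and 28.7 CPM in control and 28.6, 29.97, 27.2 and 24.8 CPM in cKO replicates 1 to 4, with cKO replicate 4 the lowest of all 8 libraries. Its mean was 28.1 ± 2.21 CPM in control and 27.6 ± 2.21 CPM in cKO tissue (SD, n = 4 each), at log2 fold change -0.03 (95% interval -0.20 to 0.15, SE 0.085, edgeR adjusted p 0.970). The ratio of C1qa to C1qb CPM was nearly constant, from 0.928 to 1.0097 in control and from 0.959 to 1 in cKO libraries. The ratio of C1qc to C1qb CPM varied more, from 0.792 to 0.929 in control and from 0.697 to 0.841 in cKO libraries, and the groups overlapped. The summed CPM of the 3 genes was 84.6 to 108 in control and 94.3 to 102 in cKO libraries.

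**Figure D2:**
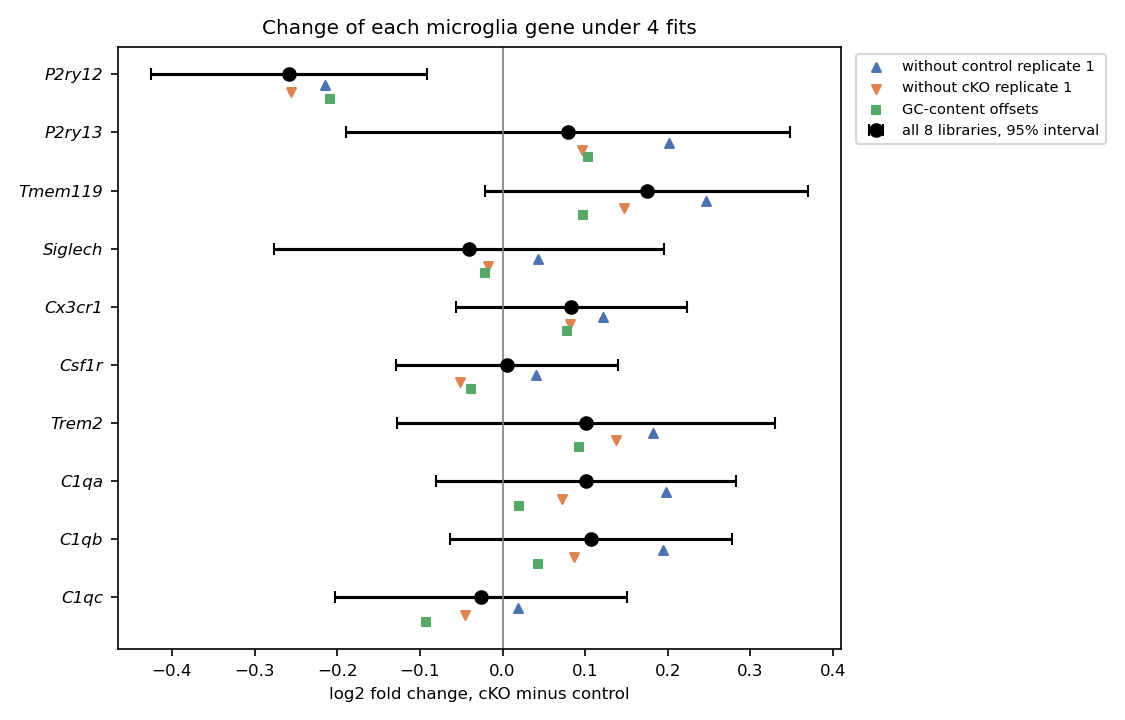
Log2 fold change (cKO minus control) of each of the 10 microglia genes. Black points with bars are the estimates from all 8 libraries with their 95% intervals, triangles are fits without control replicate 1 or without cKO replicate 1, and squares are the fit with GC-content offsets. The interval of P2ry12 (-0.43 to -0.09) is the only one that leaves out 0, and without control replicate 1 all 10 estimates lie further towards higher values.

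Control replicate 1 had the highest level of the 4 control libraries for 10 of the 10 microglia genes. Over all genes tested, that library was the highest control for 28.6%, and for 28.0% of genes with a mean of 10 to 100 CPM. It was also the highest control for 21 of the 29 tested genes on a list of other homeostatic microglia genes. The summed CPM of the 10 genes was 355 in this library, 301, 316 and 304 in controls 2 to 4, and 336, 317, 321 and 323 across cKO replicates 1 to 4. The cKO libraries therefore lay inside the range of the controls, and above all of controls 2 to 4. The spread between libraries was counted for the members only. Without a share over all genes, the counts that follow cannot be read as particular to them. The coefficient of variation between libraries was lower in cKO than in control brain for 8 of the 10 genes. It was lower for 5 of the 10 when control replicate 1 was left out. For C1qa it was 13.4% in control, 5.17% in controls 2 to 4 and 4.46% in cKO libraries, where counting error alone gives 4.09% at its mean read count. For C1qb it was 11.5%, 0.918% and 3.43% in the same order, and for Csf1r 4.43%, 0.564% and 7.48%. Counting error alone gives 4.06% for C1qb and 2.56% for Csf1r. Controls 2 to 4 thus lay closer together for both genes than that error alone would give, and their spread cannot be read as precision.

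Without control replicate 1, the 4 cKO libraries lay above the 3 remaining controls for C1qa, C1qb and Tmem119, and below them for P2ry12. In that arrangement 2.39% of all genes were higher and 2.45% lower. By edgeR without this library, the unadjusted p was under 0.05 for the same 4 of 10 genes, against 2.73% of all genes, and the adjusted p was 0.9999 for each. The same 4 had an unadjusted p under 0.05 when cKO replicate 1 was left out as well (2.84% of all genes). Control replicate 1 was the highest control for all 10 genes, so leaving it out moved every estimate upwards, and these counts cannot be read as a separate result. With any other single library left out, 1 of the 10 genes (P2ry12) had an unadjusted edgeR p under 0.05. With GC offsets and without control replicate 1, only C1qb remained under 0.05 (unadjusted p 0.0494), where 3.05% of all genes were. In control replicate 1 the summed markers of border macrophages, which share several of these genes, were also the highest of the controls at 38.3 CPM, with cKO libraries at 34.3 to 38.4. The summed neuronal and astrocyte markers were highest in this library as well, at 8107 and 5786 CPM, and the oligodendrocyte markers were at their lowest among the controls, at 5129 CPM. The part of these other cell types in the microglia values was not tested.

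**Figure D3:**
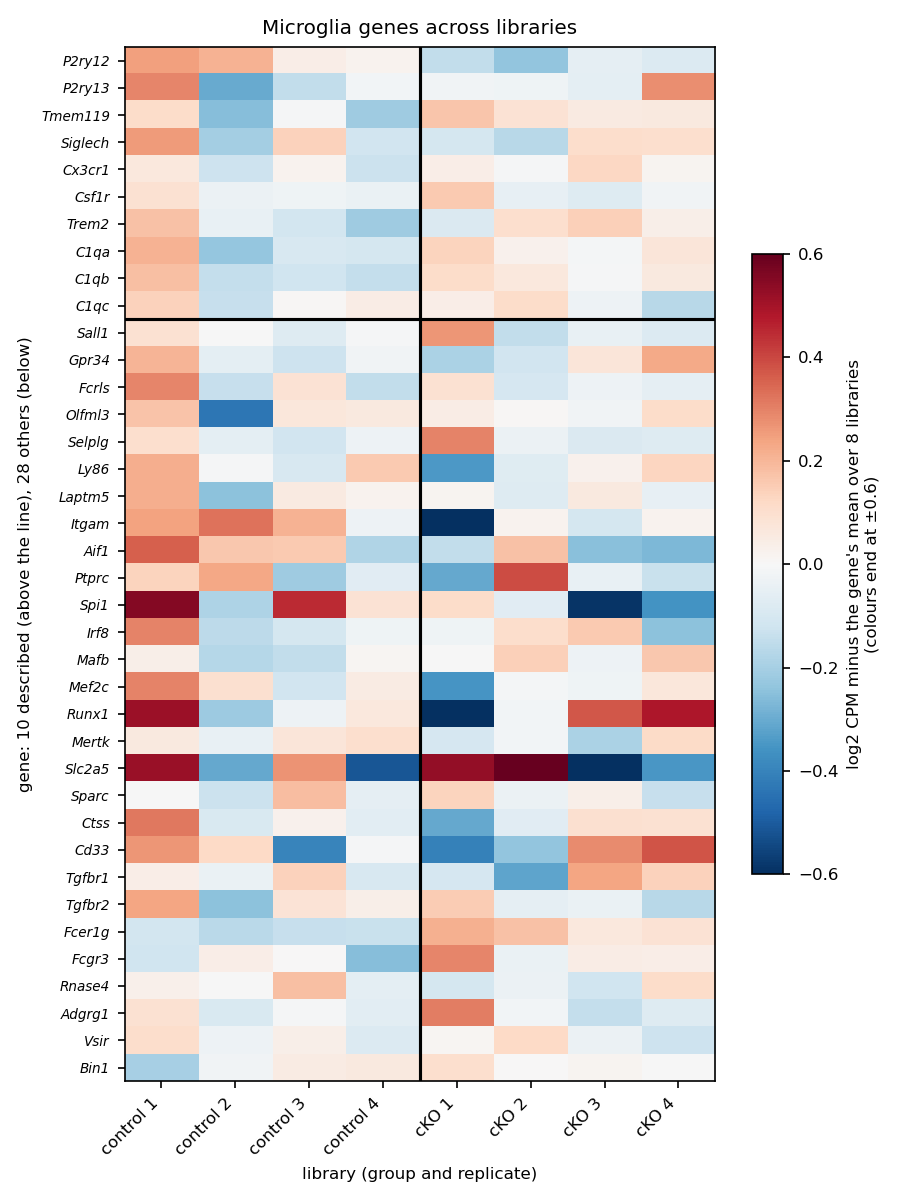
Deviation of each library from the gene's mean over 8 libraries, on a log2 CPM scale with colours ending at ±0.6. Rows are the 10 microglia genes (above the line) and 28 further homeostatic microglia genes (below it), columns are libraries. The column of control replicate 1 is above the other controls in 10 of 10 rows above the line and 20 of 28 below it.

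Levels of different genes were compared per kb of the longest protein-coding transcript in GENCODE M21. On this scale C1qa and C1qb were the highest, at 32.4 ± 3.15 and 31.4 ± 2.70 CPM per kb (SD, n = 8). Their means did not differ beyond their spread, and C1qa was the higher in 7 of 8 libraries. C1qc followed at 23.2 ± 1.72 and Csf1r at 18.2 ± 1.04 CPM per kb, each below the gene before it in every library. P2ry12 at 13.04 ± 1.52 and Cx3cr1 at 12.2 ± 0.731 CPM per kb could not be ordered, with P2ry12 the higher in 4 of 8 libraries. Trem2 at 10.6 ± 0.994, Tmem119 at 8.48 ± 0.860, Siglech at 5.99 ± 0.703 and P2ry13 at 4.19 ± 0.594 CPM per kb came last, each below the gene before it in all 8 libraries. Parts of this order rest on the transcript length chosen. Per kb of all annotated exons, Trem2 was the lowest of the 10 at 2.34 CPM per kb on average, Csf1r (14.8) stood above C1qc (14.4) and P2ry13 (4.19) above Siglech (4.08), while C1qa and C1qb stayed the highest.

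**Figure D4:**
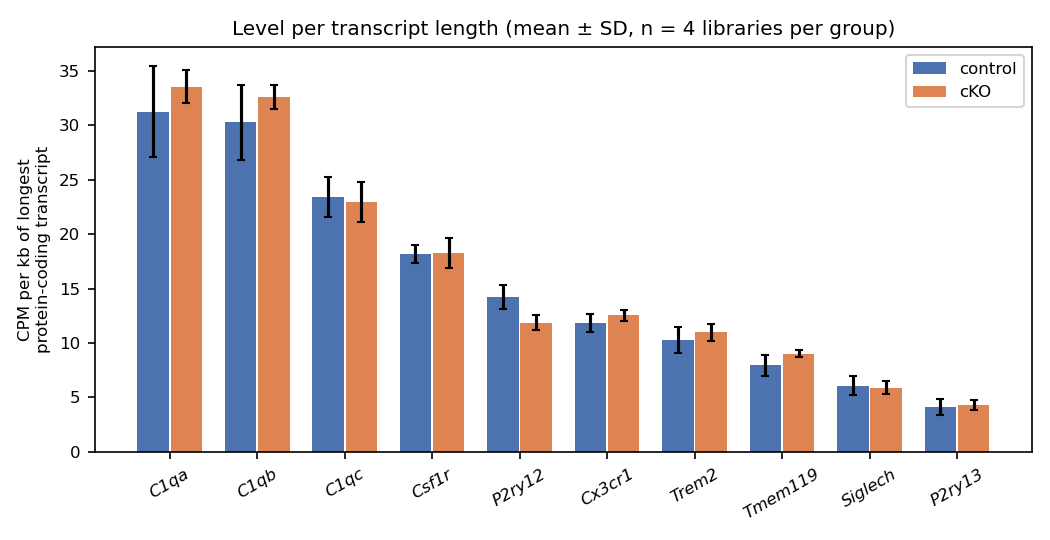
Level per transcript length of the 10 microglia genes, as CPM per kb of the longest protein-coding transcript from 0. Bars are the mean of 4 libraries and error bars the SD, for control and cKO brain. The C1q genes lead in both groups, and P2ry13 is the lowest at 4.08 (control) and 4.31 (cKO) CPM per kb.

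Partners of these receptors and related genes were taken from a fixed list of 16 genes, of which 15 were tested. None passed the adjusted edgeR test in either direction, and none had an unadjusted p under 0.05, with a median log2 fold change of 0.02. Those with the lowest p-values were Csf1, a ligand of CSF1R (0.17, SE 0.091, from 25.2 ± 2.28 to 28.5 ± 2.84 CPM), the ATP-gated channel gene P2rx4 (0.15), the lipoprotein gene Clu (0.08) and Entpd1, encoding the ectonucleotidase that removes extracellular ATP and ADP (-0.13). The second CSF1R ligand gene Il34, the fractalkine gene Cx3cl1 and the TREM2 adaptor gene Tyrobp, given for their role, stood at 0.10, 0.06 and -0.0062.

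Among the 29 tested genes of the other homeostatic microglia list none passed the adjusted edgeR test, 0 higher and 1 lower had an unadjusted p under 0.05 (2.87% and 1.91% of all genes), and the median log2 fold change was -0.0066. The lower gene was Spi1, encoding PU.1, at 5.21, 3.12, 4.85 and 3.76 CPM in control and 3.83, 3.38, 2.36 and 2.77 CPM in cKO replicates 1 to 4. Its groups overlapped, at log2 fold change -0.47 (edgeR adjusted p 0.889, SE 0.20). Fcer1g, which encodes a signalling chain of Fc receptors, read 5.03 to 5.21 CPM in control and 5.88 to 6.51 CPM in cKO tissue without overlap (0.27, SE 0.13), as 1.57% of all genes did in this direction. The integrin gene Itgam, a subunit of complement receptor 3, stood at -0.33 (SE 0.16), and Mef2c, which neurons also express, at -0.16 (SE 0.091). None of these 3 passed, each with an edgeR adjusted p of 0.889.

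The disease-associated microglia list holds genes known to be raised in microglia around damage. Of its 26 genes, 19 were tested, 0 passed the adjusted edgeR test and 0 had an unadjusted p under 0.05, with a median log2 fold change of 0.0035. Cst7, Itgax, Clec7a, Ccl3, Ccl4, Lgals3 and Ch25h had too few reads to be tested. The members with the lowest p-values were Csf1, given above, the protease gene Ctsl (-0.12), B2m (-0.12) and the receptor kinase gene Axl (-0.08).

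Beyond C1q, 37 of the 45 listed genes of the complement cascade and its regulators were tested, and 0 passed in either direction (median log2 fold change 0.0027). By edgeR, 0 higher and 1 lower had an unadjusted p under 0.05 (2.87% and 1.91% of all genes). C1qbp, a mitochondrial protein gene named for binding C1q, was higher in every cKO library (40.8 to 46.9 CPM) than in every control library (37.1 to 40.6 CPM), with 0.14 (SE 0.071, edgeR adjusted p 0.889). Over all genes 1.57% showed this arrangement, and 1 tested gene of the list showed the opposite one (1.39% of all genes). Cd46, a regulator gene, stood at 0.28 (SE 0.18). Downstream of C1q, C4b read 26.2 to 37.7 CPM in control and 27.0 to 31.6 CPM in cKO tissue, and C3 lay at or below 1.70 CPM in every library; both are given for their role.

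Of 12 monocyte and neutrophil markers, 2 had enough reads to be tested, Vcan and Csf3r, which other brain cells also express. The list summed to 23.2 to 27.3 CPM in control and 22.9 to 29.2 CPM in cKO libraries, nearly all of it from these 2 genes. Of the other 10 markers, Ccr2 reached 1.41 CPM in cKO replicate 4 (0.15 to 0.69 CPM in the other libraries), S100a9 1.03 CPM and Ngp 1.013 CPM, and the rest stayed at or below 0.65 CPM. Of 11 T, B and NK cell markers 2 were tested, the sum was 10.8 to 11.6 CPM in control and 10.4 to 12.1 CPM in cKO libraries, and Cd4 made up most of it (8.73 to 10.3 CPM). Trac (0.43 to 0.94 CPM) and Cd79a (0.13 to 0.75 CPM) had reads in every library, while Cd3d and Ncr1 had none. Of all the marker lists for other cell types, Aqp4 of astrocytes was the only gene past the adjusted threshold (0.46, SE 0.067, edgeR adjusted p 0.0104). The 8 tested genes whose pattern over the 8 libraries was most like the mean pattern of the 10 microglia genes were Hist2h3c2, Coch, Tmem65, Myo10, Tifab, Tcte2, Tcte1 and Pcdhgb6. Likeness was the root mean square difference between z-scored log2 CPM, from 0.309 for Hist2h3c2 to 0.411 for Pcdhgb6 among 13640 genes compared. None of the 8 is on any of the gene lists. Of 28 other homeostatic microglia genes compared, 5 were within the 500 genes most alike, where 3.67% of all genes compared lay. Among the microglia genes themselves, C1qa and C1qb lay nearest to that mean pattern, of which they are part (0.348 and 0.424), and P2ry12 farthest from it (1.39).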

How the data were processed

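The deposited files hold whole-number read counts per Ensembl gene, 1 file per library, without normalization. The submitters' processing notes name HISAT2 and GRCm39; the aligner's version and the program, annotation and strand setting of the counting are not given in the notes or labels. Of 57186 genes, 51880 were matched to a symbol through a GENCODE M21 table. The 5 closing entries that name no gene (no feature 4.35% to 6.04%, ambiguous 5.14% to 10.1%, low quality 2.15% to 7.18%, unaligned 3.31% to 10.4%, several alignments 4.10% to 4.39% of listed reads) were left out.

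Genes were filtered with filterByExpr, libraries scaled by TMM, and groups compared over all 16766 genes with the edgeR 4.0.16 quasi-likelihood test in R 4.3.3 (robust, genotype alone in the model; Benjamini-Hochberg adjustment, threshold 0.05). The script was tested on simulated data. Results of some listed genes are not reported here. Intervals are 95%. The members and gene lists were chosen with earlier results of these data known, and the promoter motifs after the values were seen. Genes named beyond the members were each list's genes past the threshold, up to 4 of lowest p from the 5 lists on microglia, partners, complement and C1q domains, and the 8 of most alike pattern (mean of at least 1 CPM, without predicted genes and pseudogenes); any other is named for its role, as an example, for an exon overlap or after its values were seen. Alternatives were DESeq2 1.42.0, its size factors, library totals, 2 other low-count filters, limma 3.58.1 voom, the replicate number as a block, GC-content offsets (loess, span 0.5, longest transcript) and libraries left out. Offsets combined with leaving out control replicate 1 were added after seeing the data.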

Additional observations from a re-analysis of the deposited data

Results flagged for a closer look

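In groups of 4 libraries, a library was singled out when its gap to the nearest of the others exceeded Dixon's 95% critical share of the group's range. This happened in 5 of 76 groups (38 genes, 2 groups each). Chance flags about 5% of groups, but 8 of the genes were chosen for a pattern in which control replicate 1 is the highest library, so their groups cannot be read against that share. Without them 3 of 60 groups were singled out. Control replicate 1 was singled out above the other controls for C1qb (38.6 CPM, the others 30.8 to 31.4) and for Csf1r (91.2 CPM, the others 83.3 to 84.2). For these 2 genes the coefficients of variation of controls 2 to 4 were 0.918% and 0.564%, below the counting errors of 4.06% and 2.56%. So narrow a spread among the others makes such a flag easier to reach. Control replicate 1 was also singled out for Myo10 (61.2 CPM) and Pcdhgb6 (19.8 CPM), which were named for a pattern like that of the microglia genes. In cKO replicate 4, P2ry13 stood at 12.8 CPM, with the others at 10.1 to 10.3, where counting error alone gives 7.27% at its mean read count.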

How the results depend on the processing

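In all 18 alternatives 0 of the 10 microglia genes passed the adjusted threshold. P2ry12, Tmem119, Cx3cr1, Trem2, C1qa and C1qb kept their direction in all 18, and P2ry12 ranged from -0.30 to -0.17. Csf1r turned to -0.038 with GC-content offsets and to -0.014 without control replicate 1 and cKO replicate 1, and ranged from -0.051 to 0.040 with single libraries left out. Siglech turned to 0.068 without both libraries and to 0.059 with offsets and without control replicate 1, with -0.109 to 0.043 when leaving out single libraries. C1qc turned to 0.0011 without both libraries and ranged from -0.075 to 0.020, and P2ry13 from -0.011 to 0.202, with single libraries left out. Over all genes, 4 passed, against 7 with no low-count filter, 2 with limma voom, 2 without control replicate 1 and cKO replicate 1, and 0 to 3 with single libraries left out (0 without control replicate 2 or cKO replicate 2). Of the listed genes that are not members 1 passed, 2 with no low-count filter and 0 to 1 with single libraries left out. The cause of these shifts was not tested. Deviations of same-numbered libraries of the groups correlated at 0.005 to 0.049, and those of differently numbered libraries at -0.09 to 0.105. No pairing by number was seen, but correlations this weak cannot exclude it. With the replicate block 2 genes passed. Genes of few reads, such as Trem2 and P2ry13, have counting errors near 7% per library.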

Other observations

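Of 23 genes whose proteins share the globular C1q domain, many of them synaptic organisers of neurons, 18 were tested. None passed the adjusted edgeR test and 0 had an unadjusted p under 0.05, with 8 above 0 and 10 below (median log2 fold change -0.04). The members with the lowest p-values were C1ql4 (0.50, SE 0.30), C1qtnf2 (0.46, SE 0.32), C1ql2 (0.15, SE 0.12) and C1qtnf4 (0.15, SE 0.13). The cerebellin gene Cbln3, named after its values were seen and known from cerebellar granule cells, read 13.2 CPM in control replicate 2 and 3.91 CPM in cKO replicate 4, and between 0.51 and 1.28 CPM in the other 6 libraries. Control replicate 2 was the lowest control for 6 of the 10 microglia genes (22.6% of all genes tested). Control replicate 4 was the lowest for the other 4 (24.8% of all genes tested). A relation to the Cbln3 values was not tested.

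The summed CPM of the red blood cell markers was 3.33 to 28.6 over the 8 libraries, and that of the border macrophage markers rested mainly on Stab1, at 17.2 to 21.9 CPM. Of 12 border macrophage markers 10 were tested and 0 passed the adjusted edgeR test. In this list 8 lay above 0 (51.2% of all genes) and 2 below. The median log2 fold change was 0.25, against 0.0034 over all genes. Several markers above 0 had few reads per library, such as Clec12a (2 to 17), Cd209f (2 to 14) and Siglec1 (7 to 22). The median therefore rests partly on genes of few reads. Clec12a was the only marker of this list with an unadjusted edgeR p under 0.05, as 2.87% of all genes had in this direction. It read 0.13 to 0.80 CPM in control and 0.65 to 1.16 CPM in cKO libraries (0.89, SE 0.41, edgeR adjusted p 0.889). Cd163 was the only tested marker of the list whose groups did not overlap, at 2.80 to 4.32 CPM in control and 2.46 to 2.66 CPM in cKO libraries (-0.37, SE 0.19, edgeR adjusted p 0.889), an arrangement that 1.39% of all genes showed in this direction. Clec12a, Cd163, Cd209f and Siglec1 were named after their values were seen.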
